A study of Mus musculus with 6 samples.

Results

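Target genes of beta-catenin were measured in the somatic cells of XY mouse gonads at stage E11.5 (embryonic day), in Cdyl-Het and Cdyl-KO embryos. CDYL is a chromatin protein. The set was chosen by gene symbol from commonly used targets and held 10 genes: Axin2, Lef1, Sp5, Tnfrsf19, Ccnd1, Nkd1, Nkd2, Tcf7, Apcdd1 and Notum. Of these, 9 are among the 11736 genes of the deposited tables. Nkd2 is not listed in these tables and was not analysed here. All 9 listed genes had a mean above 1 RPKM in both groups, so none of them was listed through 1 group alone.

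There were 3 libraries of the genotype Cdyl-Het, Nr5a1-hCD271 and 3 of the genotype Cdyl-KO, Nr5a1-hCD271, all from male C57BL/6 embryos. Cdyl-Het embryos are heterozygous and Cdyl-KO embryos homozygous for a Cdyl deficiency, so no group with both Cdyl copies intact was compared. In both groups the cells were collected with magnetic beads through the surface marker hCD271 and taken as gonadal somatic cells. The labels do not say whether the libraries came from separate embryos, pools or litters, so p-values measure the spread between these libraries, which may be technical.

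In canonical Wnt signalling, a Wnt ligand at a Frizzled receptor stops the breakdown of beta-catenin, which then enters the nucleus and activates genes together with factors of the TCF/LEF family. R-spondins strengthen the signal by protecting the receptors. Several direct targets are themselves brakes on the pathway, and Axin2 is used widely as a readout of its activity. In the fetal gonad, WNT4, RSPO1 and beta-catenin promote the ovarian course and oppose the testicular one.

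Of the 9 target genes, 4 were higher in Cdyl-KO (Sp5, Tnfrsf19, Lef1 and Axin2), 1 was lower (Ccnd1) and 4 did not pass the test (Nkd1, Tcf7, Notum and Apcdd1). The test was limma on log2(scaled RPKM + 1), with p-values adjusted by Benjamini-Hochberg over all 11736 genes and a threshold of 0.05. RPKM counts reads relative to gene length in kilobases and to the M reads of a library, and scaled RPKM is RPKM divided by a factor per library. Over all genes, 7.50% passed, 4.67% as higher and 2.83% as lower in Cdyl-KO. The members were chosen with results of these data known, so the counts describe these genes and are no test of the set. The median log2 difference, Cdyl-KO minus Cdyl-Het, was 0.16 over the 9 genes and 0.00 over all genes. The median over all genes depended on level. It was -0.09 over the 2934 genes of lowest level and 0.07 over the 2934 genes of highest level.

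**Figure D1:**
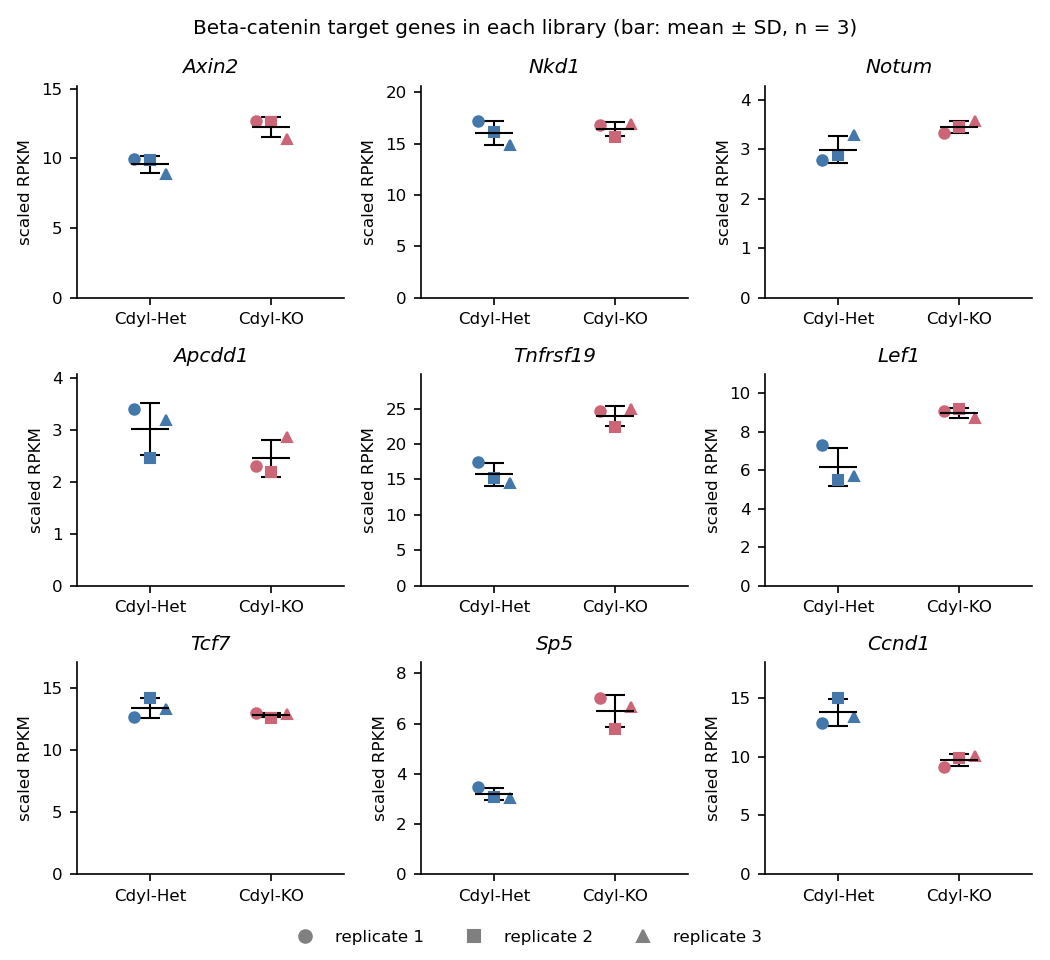
Level of each of the 9 target genes in scaled RPKM (vertical axis, from 0) in the 3 Cdyl-Het libraries (blue) and the 3 Cdyl-KO libraries (red). Symbols mark the replicate number and bars the mean ± SD. Sp5, Tnfrsf19, Lef1 and Axin2 lie higher in every Cdyl-KO library than in any Cdyl-Het library, and Ccnd1 lies lower.

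As context for the genes that rose, the upstream DNA of 3 of them is shown because it holds the core letters of the motif bound by TCF/LEF factors, searched as CTTTGA on both strands. Sequences are from RefSeq (build GRCm38.p6), 250 bases immediately upstream of an annotated transcript start, 5′ to 3′ on the strand of the gene. Capitals mark the matches, and TCAAAG is a match on the opposite strand. Sp5 has a single annotated start (chr2:70474673-70474922, plus strand), the Lef1 sequence belongs to the last of 4 starts (chr3:131156044-131156293, plus strand) and the Tnfrsf19 sequence to the second of 2 (chr14:61037988-61038237, minus strand).
Sp5: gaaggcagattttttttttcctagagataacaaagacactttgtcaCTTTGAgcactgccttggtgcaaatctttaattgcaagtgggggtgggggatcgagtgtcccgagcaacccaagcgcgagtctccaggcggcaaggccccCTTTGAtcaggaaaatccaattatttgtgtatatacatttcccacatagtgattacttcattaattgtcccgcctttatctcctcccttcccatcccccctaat
Lef1: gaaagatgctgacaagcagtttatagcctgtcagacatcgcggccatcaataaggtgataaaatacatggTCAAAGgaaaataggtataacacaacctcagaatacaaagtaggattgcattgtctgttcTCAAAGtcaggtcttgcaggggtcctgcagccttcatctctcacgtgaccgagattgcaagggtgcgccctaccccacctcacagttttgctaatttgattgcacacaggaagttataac
Tnfrsf19: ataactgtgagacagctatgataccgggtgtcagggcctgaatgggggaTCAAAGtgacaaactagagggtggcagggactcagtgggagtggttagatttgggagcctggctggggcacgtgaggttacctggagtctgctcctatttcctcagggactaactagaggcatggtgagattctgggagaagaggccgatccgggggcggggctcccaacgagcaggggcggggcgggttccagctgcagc

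In Sp5 the matches begin 204 and 104 bases before the start, in Lef1 180 and 120 bases before it, and in Tnfrsf19 201 bases before it. The window searched ran from 250 bases before to 50 bases after each start. Of the listed target genes, 6 had windows in the table, and 3 of these 6 held a match in at least 1 window. The same held for 13.4% of the 8593 genes that are both in the deposited tables and in the RefSeq table. The other 3 Lef1 windows, the other Tnfrsf19 window and the windows of Axin2, Nkd1 and Tcf7 held none of these letters. Apcdd1, Ccnd1 and Notum had no entry. The longer form CTTTGAT, which overlaps CTTTGA, was in windows of Sp5 and Tnfrsf19 and in 2.9% of the same 8593 genes. A gene with more windows has more chances of a match, and Lef1, Tnfrsf19 and Tcf7 had more than 1 window each. The number of windows per gene was not equalised between the target genes and the 8593 genes. These shares are therefore no test of the target genes. A match describes the letters and is not a measured binding site. The expression values are per gene and do not tell alternative starts apart.

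Among the feedback inhibitors, Axin2 rose and the others did not pass. Axin2 encodes a scaffold of the complex that breaks down beta-catenin (chromosome 11, 108920349 to 108950783, mm10). Scaled RPKM of 9.98, 9.88 and 8.85 were found for Cdyl-Het, against 12.7, 12.6 and 11.4 for Cdyl-KO. Each Cdyl-KO library was above each Cdyl-Het library. The mean rose 1.28-fold, from 9.57 ± 0.626 to 12.2 ± 0.720 (SD, n = 3 per group; log2 difference 0.32, SE 0.07, 95% interval 0.17 to 0.48, limma adjusted p = 0.0345). The call was close to the threshold. Without scaling of the libraries the log2 difference was 0.19 with a limma adjusted p of 0.105, and with 1 library left out the gene passed only without Cdyl-KO replicate 3 (limma adjusted p 0.0473 to 0.108).

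Nkd1 encodes a Naked cuticle protein that binds Dishevelled and restrains Wnt signalling (chromosome 8, 88521354 to 88594884). Its level was 17.2, 16.1 and 14.9 scaled RPKM in Cdyl-Het, against 16.8, 15.7 and 16.9 in Cdyl-KO. The groups overlapped (log2 difference 0.04, 95% interval -0.12 to 0.19, limma adjusted p = 0.776), and the sign was negative without scaling (-0.10), after cyclic loess (-0.02) and without Cdyl-Het replicate 3 (-0.01). The upper end of this interval lies below the estimates of the 4 genes that rose, but the interval of Axin2 starts at 0.165 and overlaps that of Nkd1. Notum encodes a secreted enzyme that inactivates Wnt ligands (chromosome 11, 120653788 to 120661175). It was at 2.78, 2.89 and 3.29 scaled RPKM in Cdyl-Het and at 3.33, 3.45 and 3.57 in Cdyl-KO. Its groups did not overlap, yet the difference did not pass (log2 difference 0.16, 95% interval -0.01 to 0.33, limma adjusted p = 0.228).

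Apcdd1 encodes a membrane-bound inhibitor of Wnt signalling (chromosome 18, 62922231 to 62961179). Its values were 3.40, 2.46 and 3.20 scaled RPKM in Cdyl-Het, against 2.31, 2.20 and 2.86 in Cdyl-KO. The lowest Cdyl-Het value lay within the Cdyl-KO range. The difference did not pass (log2 difference -0.21, 95% interval -0.49 to 0.07, limma adjusted p = 0.314).

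Tnfrsf19, which encodes the receptor TROY of the tumour necrosis factor receptor family (chromosome 14, 60963875 to 61046490), had the highest mean of the targets per length in Cdyl-KO. It was at 17.5, 15.3 and 14.4 scaled RPKM in Cdyl-Het and at 24.7, 22.4 and 24.9 in Cdyl-KO, with no overlap. The mean rose 1.53-fold, from 15.7 ± 1.59 to 24.0 ± 1.40 (SD, n = 3 per group; log2 difference 0.58, SE 0.08, limma adjusted p = 0.0104). It passed in all 16 alternative fits (log2 difference 0.44 to 0.65).

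The nuclear factors of the set included a pair of TCF/LEF family genes, of which Lef1 rose and Tcf7 did not pass. Lef1 (chromosome 3, 131110471 to 131224356) encodes a partner of beta-catenin on DNA whose own gene is induced by the pathway. It was at 7.30, 5.47 and 5.71 scaled RPKM in Cdyl-Het and at 9.09, 9.15 and 8.70 in Cdyl-KO. Cdyl-Het replicate 1 was the highest of its group but stayed below the lowest Cdyl-KO library. The mean rose 1.46-fold, from 6.16 ± 0.994 to 8.98 ± 0.245 (SD, n = 3 per group; log2 difference 0.49, SE 0.10, limma adjusted p = 0.0292). With 1 library left out, Lef1 passed only without Cdyl-Het replicate 1 (limma adjusted p 0.00799 to 0.105). Tcf7 (chromosome 11, 52252371 to 52283014), which encodes the related factor TCF1, was at 12.6, 14.2 and 13.3 scaled RPKM in Cdyl-Het and at 12.96, 12.6 and 12.8 in Cdyl-KO. The Cdyl-KO values lay inside the Cdyl-Het range except for replicate 2, just under it (log2 difference -0.06, 95% interval -0.19 to 0.08, limma adjusted p = 0.571). The other family members Tcf7l1 and Tcf7l2 did not pass either, with log2 differences of 0.02 and 0.08 that turned negative without scaling (-0.11 and -0.05).

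The ratio of Lef1 to Tcf7 within a library does not depend on scaling, and was 1 of 6 ratios computed after the values were seen. It was 0.578, 0.386 and 0.430 in Cdyl-Het, against 0.701, 0.727 and 0.677 in Cdyl-KO. The groups did not overlap (means 0.465 ± 0.10 and 0.702 ± 0.0252, SD, n = 3 per group; two-sided exact permutation p = 0.1, the smallest that 3 against 3 allows, and 0.1 for each of the 6 ratios). The ratio of Axin2 to its constitutive paralogue Axin1 was 0.589, 0.567 and 0.585 in Cdyl-Het, against 0.730, 0.729 and 0.674 in Cdyl-KO. That of Axin2 to Nkd1 was 0.581, 0.614 and 0.595 in Cdyl-Het against 0.755, 0.805 and 0.673 in Cdyl-KO. Neither ratio overlapped between groups, with the same exact p of 0.1 for each. Such a ratio bears on unequal change within a pair and does not tell which gene changed.

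**Figure D2:**
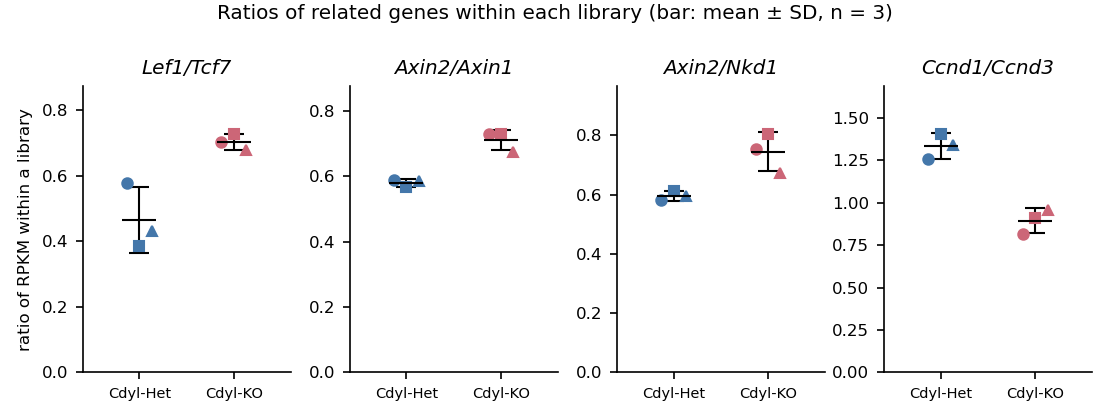
Ratio of RPKM between 2 related genes within each library (vertical axis, no unit, from 0) for Lef1/Tcf7, Axin2/Axin1, Axin2/Nkd1 and Ccnd1/Ccnd3, in Cdyl-Het (blue) and Cdyl-KO (red). Symbols mark the replicate number and bars the mean ± SD. The first 3 ratios are higher and the last is lower in every Cdyl-KO library.

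Sp5 had the largest difference of the 9 genes. It encodes a zinc finger transcription factor that is a direct target in many embryonic tissues (chromosome 2, 70474923 to 70477729). It was at 3.48, 3.09 and 3.05 scaled RPKM in Cdyl-Het and at 7.04, 5.79 and 6.66 in Cdyl-KO. The lowest Cdyl-KO library was well above the highest Cdyl-Het library. The mean rose 2.03-fold, from 3.20 ± 0.238 to 6.49 ± 0.637 (SD, n = 3 per group; log2 difference 0.83, SE 0.08, limma adjusted p = 0.00375). It stood at the 99.2 percentile of the log2 differences of all genes. At the depth implied by the values these levels stood for about 264 to 300 reads per Cdyl-Het library and 506 to 616 per Cdyl-KO library, all even numbers. Both reads of a pair may have been counted, and the number of separate fragments may then be lower. Sp5 passed in all 15 alternative fits it entered (log2 difference 0.71 to 0.96).

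Ccnd1 was the target that fell. It encodes cyclin D1, which drives entry into the cell cycle with CDK4 and CDK6 and is a target of both beta-catenin and FGF/ERK signalling (chromosome 7, 144929931 to 144939925). It was at 12.9, 15.1 and 13.4 scaled RPKM in Cdyl-Het and at 9.17, 9.89 and 10.1 in Cdyl-KO, with no overlap. The mean fell 1.42-fold, from 13.8 ± 1.13 to 9.72 ± 0.485 (SD, n = 3 per group; log2 difference -0.46, SE 0.07, limma adjusted p = 0.0138). The limma adjusted p was 0.0529 with Cdyl-Het replicate 3 left out and 0.0515 with Cdyl-KO replicate 1 left out. Its exons share 1100 bases with those of LTO1 on the opposite strand, listed as Oraov1, which was at 1.43 to 1.99 scaled RPKM in Cdyl-Het and 1.65 to 1.96 in Cdyl-KO. Exons of Axin2, Lef1 and Notum also overlap antisense transcripts (Gm11670, Gm43352, and Notumos with Myadml2os). The strand setting of the counting is not given, so reads from a gene and such a partner cannot be told apart.

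**Figure D3:**
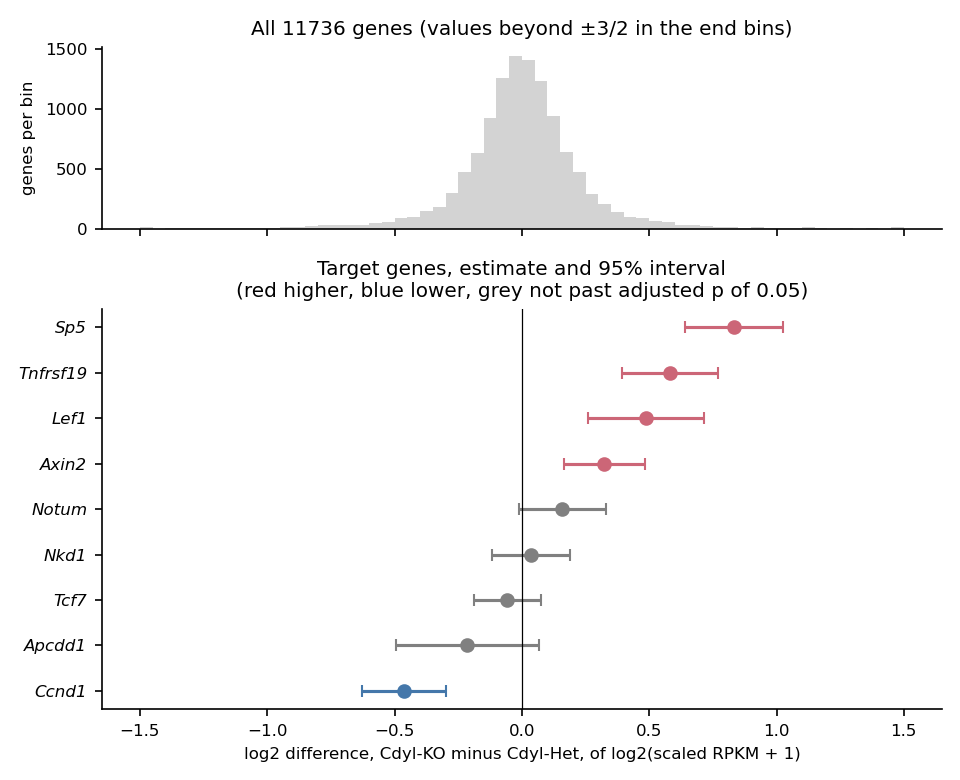
Upper panel, histogram of the log2 difference (Cdyl-KO minus Cdyl-Het) of all 11736 genes. Lower panel, the same quantity for the 9 target genes with its 95% interval from limma, coloured by call. Sp5 at 0.83 and Ccnd1 at -0.46 are the extremes of the set, and the intervals of Notum, Nkd1, Tcf7 and Apcdd1 include 0.

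Groups that did not overlap were seen on scaled values for 6 of the 9 genes, against 31.6% of all genes. On the deposited values without scaling, 3 of the 9 were higher and 1 was lower, where 2.60% of all genes were higher and 13.3% lower. The median of all genes was then -0.12, so every gene is shifted down relative to the scaled values. Sp5, Tnfrsf19 and Lef1 passed as higher and Ccnd1 as lower on both scales. On the deposited values Notum overlapped between groups, whereas all Tcf7 values of Cdyl-KO (11.9 to 12.4 RPKM) lay below those of Cdyl-Het (13.2 to 14.9 RPKM).

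By level, the order of the targets changed between the groups. In Cdyl-Het, Nkd1 and Tnfrsf19 had the highest means, followed by Ccnd1 and Tcf7, and each neighbour in this order overlapped the next. Axin2 and then Lef1 lay below them without overlap. Sp5, Apcdd1 and Notum shared the bottom with overlapping ranges between 2.46 and 3.48 scaled RPKM. In Cdyl-KO, Tnfrsf19 stood apart above Nkd1, Axin2 overlapped Tcf7, and Ccnd1 lay just above Lef1 without overlap. Sp5 lay above Notum and Apcdd1 in all 3 libraries. RPKM is per length, so these levels can be set side by side, within the error of the gene lengths that were used.

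Likeness of profiles over the 6 libraries was measured as the mean absolute difference of log2 values after centring each gene on its own mean. Lef1 and Tnfrsf19 differed by 0.089 on this measure, Axin2 and Lef1 by 0.109, and Sp5 and Tnfrsf19 by 0.125, against 0.648 for Sp5 and Ccnd1. Some genes that did not pass were as close, with 0.087 for Nkd1 and Tcf7. Axin2 and Notum differed by 0.115, while Axin2 and Sp5, which both rose, differed by 0.254. With 2 groups, this distance largely restates the gap between the log2 differences of 2 genes. Genes with similar log2 differences therefore come out near by construction, and nearness adds no evidence on them. Outside the set, the 3 listed genes nearest to Sp5 were Mid1ip1, Bmp2 and Rmrp (0.053 to 0.071), those nearest to Axin2 were Rcn3, Acvr2b and Hist2h2bb (0.024 to 0.027), and those nearest to Ccnd1 were Spint2, Lifr and Lpin2 (0.025 to 0.030). These neighbours rest on 6 libraries and depended on the processing. Of the 9, between 2 and 9 were among the nearest under other scalings, other pseudocounts or without 1 library.

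**Figure D4:**
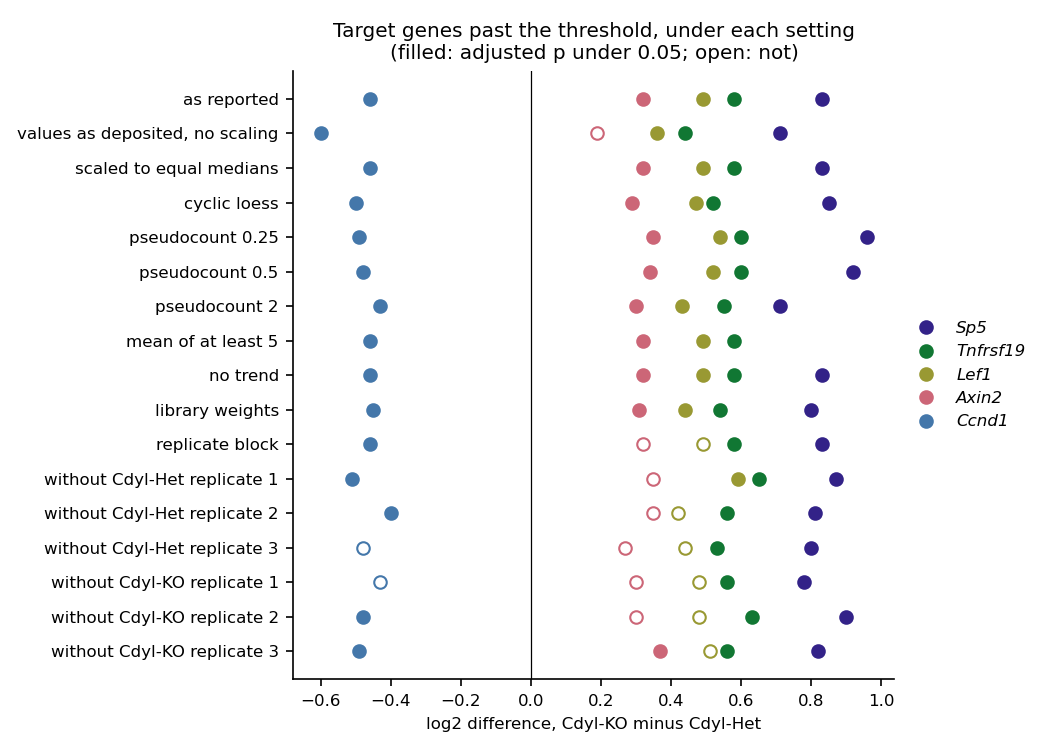
Log2 difference (horizontal axis) of the 5 target genes past the threshold as reported and under each alternative setting (rows). Filled points passed a limma adjusted p of 0.05 and open points did not. Sp5 and Tnfrsf19 are filled in every row they appear in, while Axin2 and Lef1 are open in most rows that leave out a library. Sp5 has no point in the row for genes with a mean of at least 5 RPKM, where it was not tested.

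Further beta-catenin targets moved in both directions. Of 36 fixed, 21 were listed, and 3 rose, 3 fell and 15 did not pass, with a median log2 difference of 0.15. The shares over all genes were 4.67% higher and 2.83% lower. Msx1, a homeobox factor, rose 2.33-fold from a mean scaled RPKM of 6.42 ± 0.996 to 15.0 ± 0.655 (SD, n = 3 per group; log2 difference 1.11, limma adjusted p = 0.00229). Id2, an inhibitor of basic helix-loop-helix factors, rose by 0.49 and Mycn, a transcription factor of growing cells, by 0.35 on the log2 scale (limma adjusted p = 0.0129 and 0.0194). Enc1, an actin-binding protein, fell by 0.64, Vcan, a matrix proteoglycan, fell by 0.33, and the T-box factor Tbx3 fell by 0.26 on the same scale (limma adjusted p = 0.00849, 0.0171 and 0.0409). Myc, the target most often cited beside Ccnd1, was at 7.30 ± 1.07 and 5.59 ± 0.604 scaled RPKM and did not pass (limma adjusted p = 0.115), though it did without scaling (0.0329; range over alternatives 0.0329 to 0.244). Rnf43 and Znrf3, ubiquitin ligases that remove Frizzled receptors and are induced by the pathway, did not pass, with log2 differences of 0.16 and -0.06, the latter 0.01 without Cdyl-Het replicate 2. Id2 lost its call without Cdyl-Het replicate 2 or 3 (limma adjusted p = 0.054 and 0.0561). Vcan lost it without replicate 2 of Cdyl-Het and without replicate 1 or 2 of Cdyl-KO (limma adjusted p up to 0.0647). Mycn lost it without replicate 2 or 3 of Cdyl-Het and without replicate 1 of Cdyl-KO (up to 0.0741), and Tbx3 whichever library was left out (0.077 to 0.116).

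Upstream, some signals rose and the receptors did not pass. Among ligands and R-spondins, 3 of 8 listed genes rose and 0 fell, where 4.67% of all genes rose and 2.83% fell. Wnt4 was at 23.2, 21.9 and 20.0 scaled RPKM in Cdyl-Het, against 34.9, 29.9 and 32.4 in Cdyl-KO, and Rspo1 at 19.4, 15.5 and 16.7 against 25.1, 24.3 and 23.5, each without overlap. Wnt4 passed in all 16 alternative fits, while Rspo1 did not pass without replicate 2 or 3 of Cdyl-Het and without replicate 1 or 2 of Cdyl-KO (limma adjusted p up to 0.0777). Fst, an activin antagonist downstream of these signals, rose 1.97-fold (limma adjusted p = 0.0102). Wnt2b, a further ligand, also rose (log2 difference 0.33, limma adjusted p = 0.0373), and it passed only without Cdyl-Het replicate 1 when a library was left out (limma adjusted p up to 0.112). Of 13 listed receptors, 0 passed in either direction by limma, while 2 had an unadjusted p under 0.05 as higher and 1 as lower. The share of all genes under that unadjusted cut-off was not counted, so these unadjusted counts are not read as change. Among secreted or membrane-bound antagonists, Trabd2b, which encodes a protease that cleaves Wnt ligands, was the 1 of 7 that rose (log2 difference 0.31, limma adjusted p = 0.0252). These 7 include Notum and Apcdd1 of the set described above.

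The transcript of beta-catenin itself did not pass. Ctnnb1 had means of 93.8 ± 5.61 scaled RPKM in Cdyl-Het and 93.03 ± 1.604 in Cdyl-KO (SD, n = 3 per group; log2 difference -0.01, 95% interval -0.15 to 0.13, limma adjusted p = 0.939). The sign turned without replicate 2 of Cdyl-Het (0.04) or of Cdyl-KO (0.00). The activity of beta-catenin is set largely by protein stability, which RNA does not measure. In the group of turnover genes, 2 of 20 rose and 0 fell: Axin2 and Dvl1, which encodes a Dishevelled protein that relays the signal (log2 difference 0.33, limma adjusted p = 0.0293). Among TCF factors and nuclear cofactors, 2 of 19 rose and 0 fell: Lef1 and Bcl9l, which encodes a coactivator of beta-catenin (log2 difference 0.32, limma adjusted p = 0.0281). Axin2 and Lef1 belong to the set described above, so only Dvl1 and Bcl9l are further genes. Over all genes, 4.67% were higher and 2.83% lower, so these counts are not read as a rise of either list. With 1 library left out, Dvl1 passed only without Cdyl-Het replicate 2, and Bcl9l and Trabd2b only without Cdyl-Het replicate 1, with limma adjusted p of up to 0.0954, 0.0908 and 0.0841. These 3 genes and Wnt2b also missed the threshold without scaling.

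**Figure D5:**
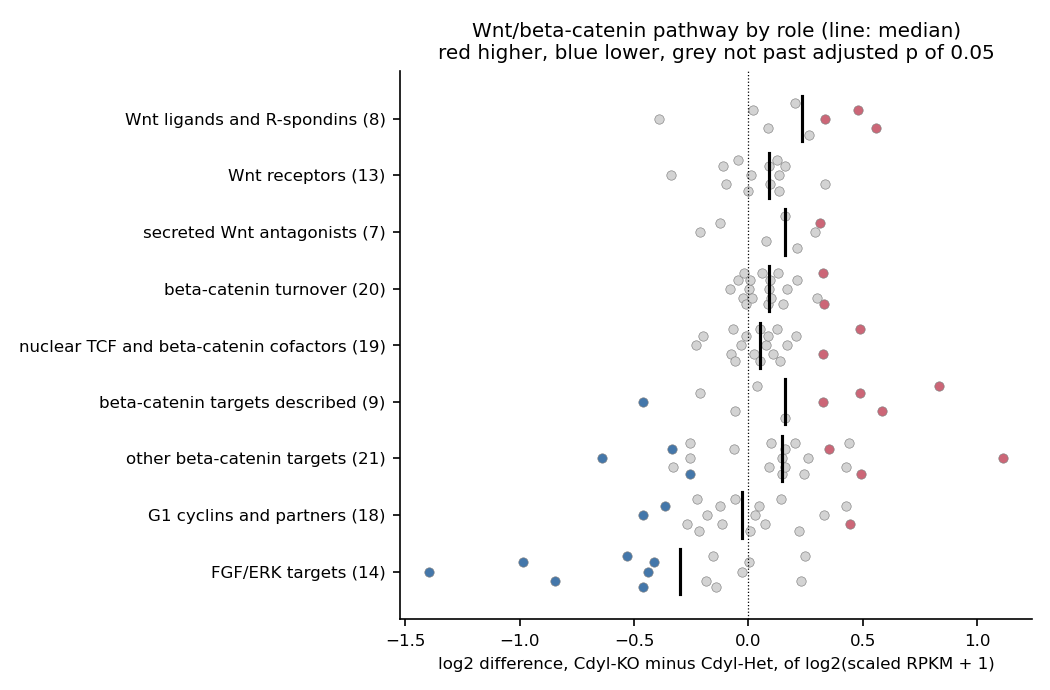
Log2 difference (Cdyl-KO minus Cdyl-Het) of each listed gene of the Wnt/beta-catenin pathway, grouped by role, with G1 cyclins and FGF/ERK targets below. Each point is a gene, coloured by call, and the line is the median of the group. Medians of the signalling groups lie between 0.05 and 0.23, and that of FGF/ERK targets is at -0.30. The median was 0.07 over the 2934 genes of highest level in the whole data, so group medians near this value are not read as a shift.

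Beside Ccnd1, a second D-type cyclin was lower. Ccnd2 fell, with mean scaled RPKM of 21.3 ± 1.88 in Cdyl-Het against 16.2 ± 0.359 (SD, n = 3 per group; log2 difference -0.37, limma adjusted p = 0.0252), while Ccnd3 was at 10.3 ± 0.350 and 10.9 ± 0.359 and did not pass (limma adjusted p = 0.453; log2 difference 0.07, and -0.06 without scaling). Within a library, the ratio of Ccnd1 to Ccnd3 was 1.26, 1.41 and 1.34 in Cdyl-Het, against 0.815, 0.909 and 0.957 in Cdyl-KO (exact permutation p = 0.1, n = 3 per group). Cdkn1b, which encodes the cyclin kinase inhibitor p27, rose from 10.3 ± 0.848 to 14.4 ± 0.734 scaled RPKM. Of 18 listed G1 cyclins and partners, 1 rose, 2 fell and 15 did not pass, where 4.67% of all genes rose and 2.83% fell. Ccnd2 passed only without Cdyl-Het replicate 1 when a library was left out, and Cdkn1b only without replicate 1 of Cdyl-Het or replicate 3 of Cdyl-KO (limma adjusted p up to 0.086 and 0.0582).

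Other transcripts induced by FGF/ERK signalling fell in the same libraries as Ccnd1. Of 14 listed genes, 7 fell, Ccnd1 among them, 0 rose and 7 did not pass, with a median log2 difference of -0.30. The shares over all genes were 2.83% lower and 4.67% higher. Etv4, an ETS factor, fell from 5.51 ± 0.375 to 1.50 ± 0.494 scaled RPKM, and Spry4, a feedback inhibitor of the pathway, from 6.16 ± 1.07 to 2.61 ± 0.509 (SD, n = 3 per group). Etv5 and Il17rd fell by 0.85 and 0.53 on the log2 scale, and their limma adjusted p was above the threshold without Cdyl-Het replicate 2 or 3 (up to 0.0645 and 0.059). Their part in the fall of Ccnd1 was not tested.

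Markers of cell types that the preparation could hold moved between the groups as well. For comparison, 4.67% of all genes rose and 2.83% fell by limma. Of 8 listed genes of gonadal somatic identity, 3 rose and 0 fell, with a median log2 difference of 0.14. The transcription factor genes Emx2, Nr0b1 and Lhx9 rose by 0.57, 0.50 and 0.46 on the log2 scale (limma adjusted p = 0.0129, 0.00907 and 0.0273). Lhx9 lost its call without replicate 2 of Cdyl-Het and without any 1 of the Cdyl-KO libraries (limma adjusted p up to 0.0874). Nr5a1 itself was at 70.4 to 94.0 scaled RPKM over the 6 libraries and did not pass (limma adjusted p = 0.383). Of 11 listed markers of the coelomic epithelium, the surface layer of the gonad, 5 rose and 0 fell, and 7 were higher and 1 was lower at an unadjusted p under 0.05. Their summed level was 155 to 173 scaled RPKM in Cdyl-Het and 217 to 229 in Cdyl-KO. Podxl, which encodes a sialomucin of the cell surface, made up much of the sum (72.3 to 87.1 against 118 to 125), and the other 10 genes summed to 83.1 to 86.1 against 98.4 to 104. Aldh1a1, a retinoic acid synthesis enzyme chosen after its values were seen, had a log2 difference of -0.54 and did not pass (limma adjusted p = 0.105), though it did without scaling (0.0427) and without Cdyl-Het replicate 1 (0.0409; range over alternatives 0.0409 to 0.249). Of 9 listed endothelial markers 4 fell and 0 rose, with sums of 40.5 to 43.96 against 30.1 to 31.1. Of 7 listed Sertoli cell markers 6 fell and 0 rose, with sums of 90.3 to 127 against 40.2 to 57.3. The remaining Sertoli cell marker, Dmrt1, had a log2 difference of 0.33 without overlap and did not pass (limma adjusted p = 0.0548). None of 11 listed interstitial progenitor markers passed by limma (0 in either direction, with 3 higher and 3 lower at an unadjusted p under 0.05), and their sums were 148 to 151 against 155 to 163. Of 6 listed markers of mesonephric epithelium, 1 rose and 0 fell (13.4 to 18.7 against 15.6 to 18.8). The riser was Pax8 (log2 difference 0.40, limma adjusted p = 0.0227), which passed in 1 of 6 fits without 1 library. Of the 6 markers, 4 had a log2 difference below 0 (median -0.15). Of 3 listed markers of neural crest, nerve and muscle, 1 rose and 0 fell (8.26 to 10.0 against 9.42 to 12.8). That gene was Tubb3 (log2 difference 1.15, limma adjusted p = 0.0195), which passed in 4 of 6 such fits. Of the 3 markers, 2 were below 0 (median -0.15). Neither list is read as a rise of its cell type. The blood list, with 4 globin genes among 5 listed, differed more within than between groups (43.5 to 212 against 44.0 to 125), with 0 of 5 past the threshold by limma and 1 at an unadjusted p under 0.05. No fixed germ cell marker is listed (0 of 10). The unadjusted counts have no share of all genes beside them, so they are not read as change. The part of these shifts in the differences of the target genes was not tested. In RNA of a whole preparation, a changed number of cells of a type and a changed amount of RNA per cell cannot be told apart.

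The low values came in steps that imply 34.6 to 45.2 M reads per library, with 63.5% to 71.5% of the whole counts even. Across genes, log2 values had a Pearson correlation of 0.976 to 0.983 within groups and 0.962 to 0.977 between them. Cdyl was read in both groups, at 7.77 to 8.23 scaled RPKM in Cdyl-Het and 6.77 to 7.07 in Cdyl-KO (limma adjusted p = 0.0702). Without scaling it passed as lower (log2 difference -0.32, limma adjusted p = 0.0145). The sources used here do not say which part of the gene is altered, so its level does not check the labels.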

How the data were processed

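RNA of hCD271-positive cells was measured in 3 Cdyl-Het and 3 Cdyl-KO libraries, made with a stranded total RNA kit per the labels' protocols. STAR, featureCounts 1.6.4 (Subread) and mm10 were used, per the submitters' processing notes. The sources used here give no annotation, strand setting, gene filter or step to the final values. The authors' deposited values were taken as RPKM from the values themselves, which were not whole and summed to 191953 to 209917 per library. Genes with a mean under 1.005 in both groups are not analysed here. Multiplied by gene length, low values came in steps of whole reads (87.4% to 90.1% within 0.02, and 56.2% to 62.5% for a step of doubled size), which implied the depths; no count table was used. A count model had been planned, and limma was used because the values are RPKM.

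RPKM was divided by a factor per library, an unweighted trimmed mean of log ratios against Cdyl-Het replicate 1 (30% of ratios and 5% of levels trimmed). Values of log2(scaled RPKM + 1), which understate changes of weakly expressed genes, were fitted with a group term alone by limma 3.58.1 (R 4.3.3, empirical Bayes with trend). Benjamini-Hochberg adjustment covered 11736 genes. The procedure was tested on simulated data. Alternatives were no scaling, median scaling, cyclic loess, pseudocounts of 0.25, 0.5 and 2, a mean of at least 5, no trend, library weights, a replicate block and leaving out each library.

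The members and lists were chosen with earlier results of these data known. Genes named were all listed members, Ctnnb1, Cdyl, Nr5a1, Wnt4, Rspo1 and Fst, up to 4 genes per list past the threshold, and the 3 nearest profiles of Sp5, Axin2 and Ccnd1. The nearest had a mean log2 value of 1 or more and at least 50% of the member's range. Mycn, Tbx3, Myc, Rnf43, Znrf3, Tcf7l1, Tcf7l2, Axin1, Ccnd3, Aldh1a1, Dmrt1, Oraov1 and the ratios were chosen after their values were seen. Positions are those of GENCODE M21 (98.3% of symbols matched).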

Additional observations from a re-analysis of the deposited data

How the results depend on the processing

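The number of genes higher in Cdyl-KO was 548, against 305 without scaling, 209 with a replicate block and 197 to 387 without 1 library. The number lower was 332, against 1558 without scaling, 200 among genes with a mean of at least 5, 128 with the block and 56 to 260 without 1 library. Target genes higher numbered 4, against 2 with the replicate block (limma adjusted p of 0.0553 for Axin2 and 0.0581 for Lef1) and 2 to 3 without 1 library, and those lower 1, against 0 to 1. In the other lists 21 genes were higher, against 10 with the block and 8 to 21 without 1 library, and 20 were lower, against 40 without scaling, 11 with a mean of at least 5 and 8 to 17 without 1 library. The median of the targets was 0.16, and 0.05 without scaling. Of the 9 nearest genes, 2 were kept after cyclic loess, 3 with a pseudocount of 0.25, 5 with a pseudocount of 2 and 2 to 6 without 1 library. Signs turned for Nkd1 without scaling (-0.10), after cyclic loess (-0.02) and without Cdyl-Het replicate 3 (-0.01; -0.01 to 0.08 over left-out libraries), for Ctnnb1 without replicate 2 of Cdyl-Het (0.04) or of Cdyl-KO (0.00; range -0.04 to 0.04), for Znrf3 without Cdyl-Het replicate 2 (0.01; range -0.12 to 0.01), for Tcf7l1 without scaling (-0.11) and after cyclic loess (-0.02), and without scaling for Tcf7l2 (-0.05), Axin1 (-0.08) and Ccnd3 (-0.06). The causes were not tested. Fits without 1 library or with a mean of at least 5 also rest on fewer libraries or genes. Same-numbered libraries did not deviate together (correlations -0.052, -0.27 and -0.0527, against -0.144 to 0.222 for differently numbered ones). Deviations centred within groups of 3 depend on each other, so these values cannot tell whether same-numbered libraries share more than a number. Sp5, Apcdd1 and Notum have no value among genes with a mean of at least 5.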
